A study of Rattus norvegicus with 47 samples.

Results

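Csf1r, Lyz2, Cd68, Rnase6, Rnase2, Mpeg1, Ms4a7, Cd93 and F13a1 are genes that mark monocytes and macrophages, and their blood mRNA was measured in rats at intervals up to 24 h after a stroke. These 9 genes were taken by their symbol in the authors' array table, which lists 27596 probe sets and 20935 different gene symbols, and each of the 9 had 1 probe set, a group of array probes read together as 1 signal. All 9 therefore entered every comparison. Blood came from 8 male spontaneously hypertensive rats (SHR), 16 weeks old, in which the middle cerebral artery (MCA) was occluded with a thread and reperfused after the 1 h sample and before that of 2 h. The 0 h sample preceded anesthesia, and further samples followed at 1, 2, 3, 6 and 24 h post MCA occlusion, so each rat was sampled at every time except 1 rat at 6 h, which left 7 arrays there and 8 at each other time. No rats with sham surgery were in the series, so stroke, surgery, anesthesia, reperfusion, repeated bleeding and time of day cannot be told apart as sources of a change from 0 h. The tail vein was the source of all samples except those at 24 h, which came from a puncture of the heart under anesthetic overdose, so time and collection site changed together at 24 h.

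Monocytes are phagocytes made in the bone marrow that circulate in blood, and macrophages are the tissue cells that they or embryonic precursors give rise to. Classical monocytes leave the blood for injured tissue, while nonclassical monocytes patrol the inside of vessels. Monocytes and macrophages are maintained by signals through the receptor Csf1r, and in stroke blood monocytes enter the injured brain. RNA here was made from the pellet of all blood cells, so for every gene fewer cells of a type and less RNA per cell cannot be told apart.

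Signals are log2 values made by the authors with RMA, which normalizes all arrays to 1 distribution. A difference of 1 on this scale is a doubling, and levels of different genes are not compared because each probe set responds in its own way. Single arrays were not used, so each level below is the authors' mean with their SD over the arrays of a time point. A gene is said to have risen or fallen where limma's moderated test on these means and SDs gave an adjusted p (Benjamini-Hochberg over all 27596 probe sets) below 0.05. The median change of all probe sets from 0 h lay between 0.04 and 0.07 at the 5 later times. All 5 comparisons share the same 0 h samples, and the test takes arrays as independent although the same rats were sampled repeatedly. P-values therefore measure the spread between arrays of a time point.

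All 9 genes changed over time by the F-test over the 6 time points, where 55.5% of all probe sets passed the same FDR of 0.05. The 9 were chosen with earlier results of these data known. Shares of all probe sets, here and below, and ranks among them are given for scale and are not a test. At the stricter p of 5e-07 that the study used, 7 of 9 passed, against 13.5% of all probe sets. The 2 outside it were Ms4a7 and F13a1. The study's own F-test put Cd93 outside this cut-off, so the 7 are not all on its list. Without the 24 h samples, 4 of the 9 passed, in a fit with fewer samples. The genes did not move as a block. At 1 h, 3 had risen and 4 had fallen, where 21.7% of all probe sets rose and 15.4% fell. Of the 3 that rose, 1 was left after centring, as well as with the spread of these 2 time points only. At 2 h the counts were 2 and 3 (background 21.7% and 18.6%). At 3 h they were 2 and 4 (27.3% and 19.2%), and at 6 h again 2 and 4 (22.5% and 19.3%). At 24 h, 2 had risen and 5 had fallen, where 17.4% and 13.9% of all probe sets did.

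Neighbouring time points were compared as well, and reperfusion, under a second anesthesia, falls between the 1 h and 2 h samples. From 1 h to 2 h, 3 of the 9 rose and 1 fell, against 4.66% and 4.11% of all probe sets. From 2 h to 3 h 1 rose and 0 fell (1.90% and 1.62%), and from 3 h to 6 h 0 rose and 1 fell (2.34% and 2.44%). Without moderation, the falls of Rnase6 (1 h to 2 h) and Rnase2 (3 h to 6 h) were not called. With the spread of the 2 time points only, the rise of Mpeg1 (2 h to 3 h) was not called. From 6 h to 24 h, the longest interval, 4 rose and 3 fell (10.2% and 8.68%). The 4 that rose last were Csf1r, Ms4a7, Cd93 and F13a1, and the 3 that fell were Lyz2, Rnase2 and Mpeg1.

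**Figure D1:**
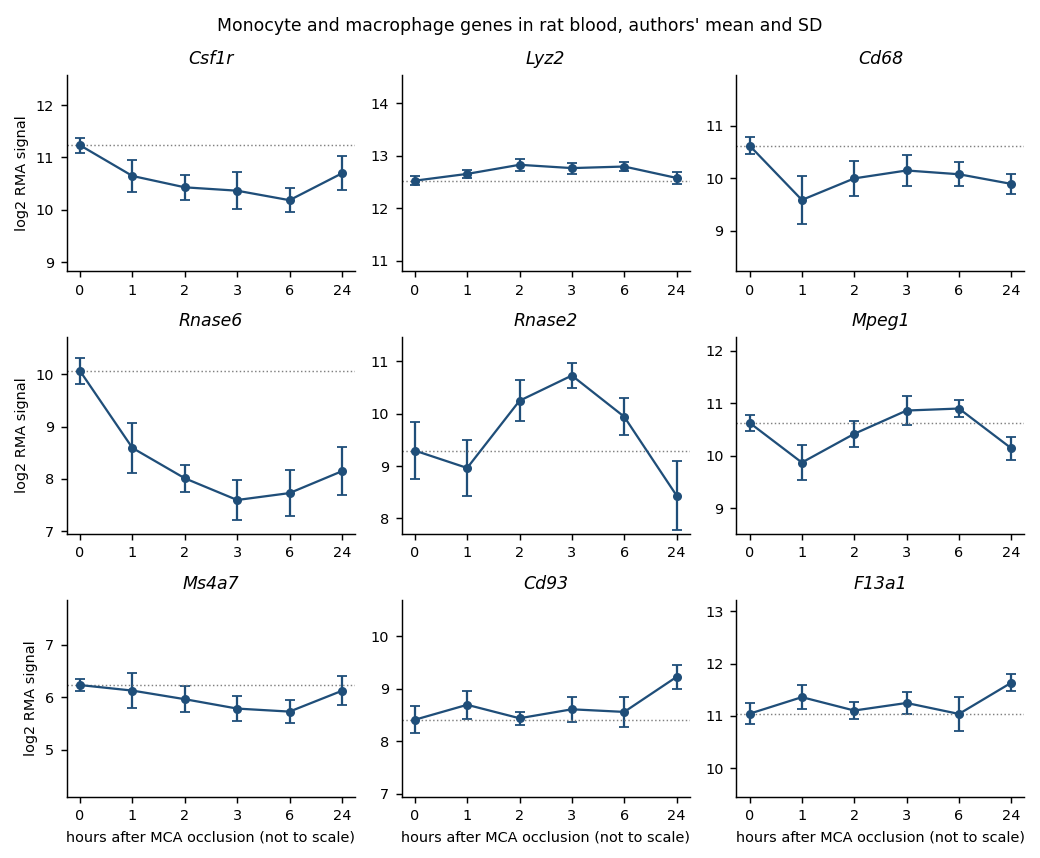
Authors' mean log2 RMA signal (y axis) of each of the 9 genes at 0, 1, 2, 3, 6 and 24 h post MCA occlusion (x axis, not to scale), with error bars for the SD over 8 arrays (7 at 6 h) and a dotted line at the 0 h mean. All panels span the same number of log2 units. Rnase6 and Csf1r lay below the 0 h line at all later times, Rnase2 peaked at 3 h, and Cd93 and F13a1 were highest at 24 h.

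Rnase6, Csf1r and Cd68 were below 0 h at all 5 later times, and Rnase6 fell the furthest of the 9 genes at each. Rnase6 encodes a small antimicrobial ribonuclease of monocytes. Its probe set maps to chromosome 15, plus strand, bases 31891330 to 31891791 of the rn5 build. In order of time, its mean log2 signals were 10.06 ± 0.24 before occlusion (SD, n = 8) and 8.59 ± 0.49, 8.01 ± 0.26, 7.60 ± 0.39, 7.73 ± 0.44 (n = 7) and 8.15 ± 0.46 at 1, 2, 3, 6 and 24 h. Every later mean stood well below the 0 h mean, by at least 1.47 against a highest SD of 0.49. The fall reached 2.46 at 3 h (change -2.46, SE 0.18, limma adjusted p = 1.99e-15), which left 18.2% of the 0 h signal. Among all 27596 probe sets ordered from the most negative change, Rnase6 ranked 1 at 6 h and 2 at both 3 and 24 h. At 24 h it was still at 26.6% of the 0 h signal (adjusted p = 9.57e-11). It had regained part of the loss by then, with 24 h above 3 h by 0.55 (adjusted p = 0.0370, with 13.8% of all probe sets called between these times), while 24 h and 6 h did not differ past the threshold.

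Csf1r (rn5 chromosome 18, plus strand, 55645806 to 55689297) is the receptor for the growth factors CSF1 and IL-34, on which monocytes and macrophages depend for survival. The mean log2 signal was 11.23 ± 0.15 at 0 h and then 10.65 ± 0.31, 10.43 ± 0.24, 10.36 ± 0.36, 10.18 ± 0.23 and 10.69 ± 0.33 at 1, 2, 3, 6 and 24 h. The level was lower at every later time, lowest at 6 h, and partly back at 24 h. At 6 h it was at 48.4% of the 0 h signal (change -1.05, SE 0.14, limma adjusted p = 2.04e-08). The 24 h level exceeded the 6 h level by 0.51 (adjusted p = 0.00512) and stayed 0.54 below 0 h (adjusted p = 0.00194). In descending order of level, 0 h and 24 h differed past the threshold, whereas 24, 1, 2, 3 and 6 h each lay within the error of the next.

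Of the other 15 genes of the CSF1R axis on the array (its ligands, related receptors and signalling partners), 4 rose and 4 fell at 1 h, and 5 rose and 3 fell at 6 h. Csf2rb and Csf3r, receptor chains for the related growth factors GM-CSF and G-CSF, rose by 2.27 and 1.95 at 6 h, opposite to Csf1r. Neutrophils carry these chains too, and 14 of 18 neutrophil genes rose at 6 h, whose part in this rise was not tested. Plcg2 and Inpp5d, a phospholipase and a phosphatase downstream of immune receptors, fell by 0.65 and 0.48 at 3 h.

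Cd68 (rn5 chromosome 10, minus strand, 56014364 to 56016243) encodes a glycoprotein of late endosomes and lysosomes that is used to stain macrophages. It went from 10.63 ± 0.17 at 0 h to 9.59 ± 0.46 at 1 h, and stood at 9.998 ± 0.333, 10.15 ± 0.29, 10.08 ± 0.23 and 9.89 ± 0.19 at 2, 3, 6 and 24 h. Its lowest level was that of the first sample after occlusion, unlike that of Csf1r or Rnase6. The 1 h change was -1.04 (SE 0.14, limma adjusted p = 1.36e-07), which left 48.7% of the 0 h signal. The level rose again by 0.56 from 1 h to 3 h (adjusted p = 0.00525), an interval in which 10.4% of all probe sets were called. It remained below 0 h at 24 h, by 0.73 (adjusted p = 1.03e-04). The other 20 phagolysosome genes on the array did not share this dip as a set: 7 rose and 5 fell at 1 h. Lipa, the lysosomal acid lipase, fell by 1.38 at 2 h, while Cd63, a tetraspanin of lysosomes and granules, rose by 1.92 at 6 h.

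Mpeg1 (rn5 chromosome 1, plus strand, 235886916 to 235889195), which encodes the pore-forming protein perforin-2 of phagocytes, also fell first. It started from a mean log2 signal of 10.63 ± 0.15 at 0 h and went to 9.87 ± 0.34 at 1 h, and then 10.42 ± 0.25, 10.86 ± 0.28, 10.90 ± 0.16 and 10.14 ± 0.22 at 2, 3, 6 and 24 h. The level dipped, recovered past its starting point and dipped again. The 1 h and 24 h changes were -0.76 and -0.49 (SE 0.12 for both, limma adjusted p = 1.70e-06 and 0.00139). The 3 h and 6 h means lay above 0 h by 0.23 and 0.27, which did not pass the threshold (adjusted p = 0.0974 and 0.0674). The steps within the curve did: Mpeg1 rose by 0.55 from 1 h to 2 h and by 0.44 from 2 h to 3 h, and fell by 0.76 from 6 h to 24 h (adjusted p = 0.00122, 0.0197 and 3.79e-06). The step from 2 h to 3 h was not called with the spread of these 2 time points only (adjusted p = 0.0510).

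Rnase2, a ribonuclease of the family that includes the eosinophil-derived neurotoxin, rose and later fell below its starting level. Its probe set maps to chromosome 15, minus strand, 31984003 to 31984812 of rn5. The mean log2 signals before occlusion and at 1, 2, 3, 6 and 24 h were 9.30 ± 0.55, 8.96 ± 0.53, 10.25 ± 0.39, 10.73 ± 0.25, 9.94 ± 0.35 and 8.44 ± 0.66. It was highest at 3 h and lowest at 24 h, and its arrays spread more at 0, 1 and 24 h than at the peak. At 3 h the signal was 2.70-fold that of 0 h (change 1.43, SE 0.23, limma adjusted p = 1.07e-06). At 24 h it was at 55.2% of the 0 h signal (change -0.86, adjusted p = 0.00321). From 3 h to 24 h it fell by 2.29 (adjusted p = 3.41e-11), to 20.4% of the peak. The 1 h change of -0.33 did not pass (adjusted p = 0.248).

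Rat Rnase2 belongs to a group of ribonucleases known from eosinophils, so markers of that cell type were set beside it. Of 15 eosinophil and basophil genes on the array, 6 rose and 6 fell at 3 h (3 rose with quantile normalized means), and their summed linear signal in order of time was 4959, 6853, 7048, 7474, 7999 and 7850. Bright probe sets weigh most in this sum, and the median changes of the list at 1, 2, 3, 6 and 24 h were 0.13, 0.10, 0.13, -0.19 and 0.04. Siglec8, a lectin of eosinophils, rose by 1.67 at 3 h, and Il5ra, the receptor chain for the eosinophil growth factor IL-5, fell by 1.74. Epx and Prg2, the granule peroxidase and major basic protein of eosinophils, were looked up after their values were seen and changed by 0.21 and 0.25 at 3 h. None of the 15 genes was at 0, but signal over background was not assessed, so this does not show that they were detected. The part of these cells in the Rnase2 signal was not tested.

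**Figure D2:**
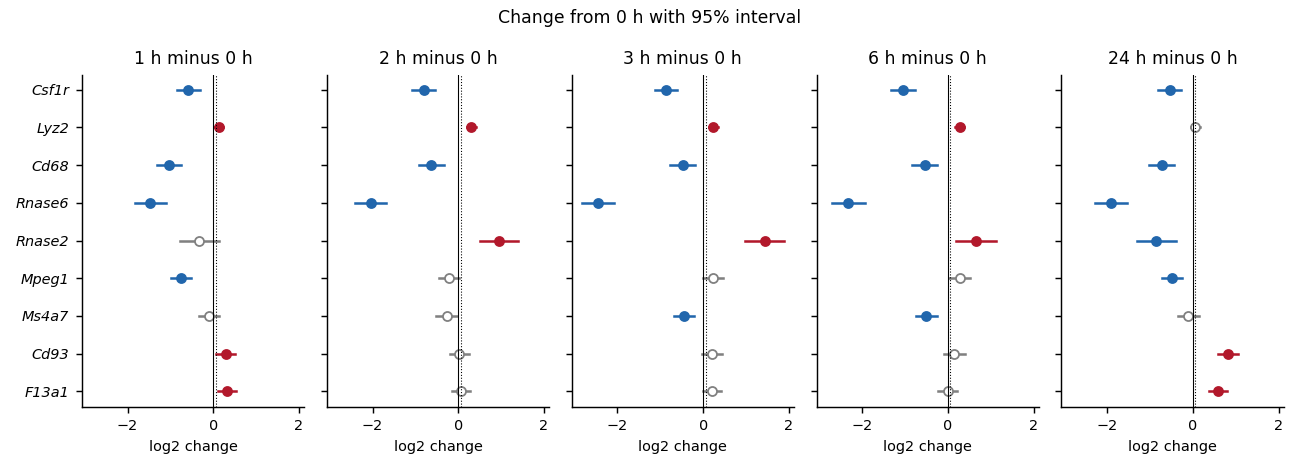
Change of log2 signal from 0 h (x axis) for the 9 genes (rows) at 1, 2, 3, 6 and 24 h, with the 95% interval of the moderated test. Filled red and blue points are genes called higher and lower, open grey points were not called, and the dotted line is the median change of all probe sets. Rnase6 lies farthest to the left in every panel, and Rnase2 moves from the right at 2 to 6 h to the left at 24 h.

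Rnase6 and Rnase2 lie in the same gene cluster, with their starts 92.7 kb apart in rn5, and moved in opposite directions at 2, 3 and 6 h. The cluster holds 14 probe sets with a symbol of the ribonuclease A family over 372 kb. At 3 h, 7 of these were higher than at 0 h, 3 were lower and 4 were not called. Those that fell were Rnase6, Rnase4 (by 1.47) and Ang (by 0.37), which encode ribonucleases of the innate defence and angiogenin. Their order on the chromosome is Rnase4, Ang, Rnase6, with the interval of Ang inside that of Rnase4, so that transcripts shared by this pair were not told apart. On the far side of Rnase2 from Rnase6, Rnase17 and Ear1 rose by 0.44 and 0.59. Of the 12 family members other than Rnase6 and Rnase2, 6 rose at 3 h, and 2 did after quantile normalization of the means. Cross-hybridization between related family members was not tested.

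**Figure D3:**
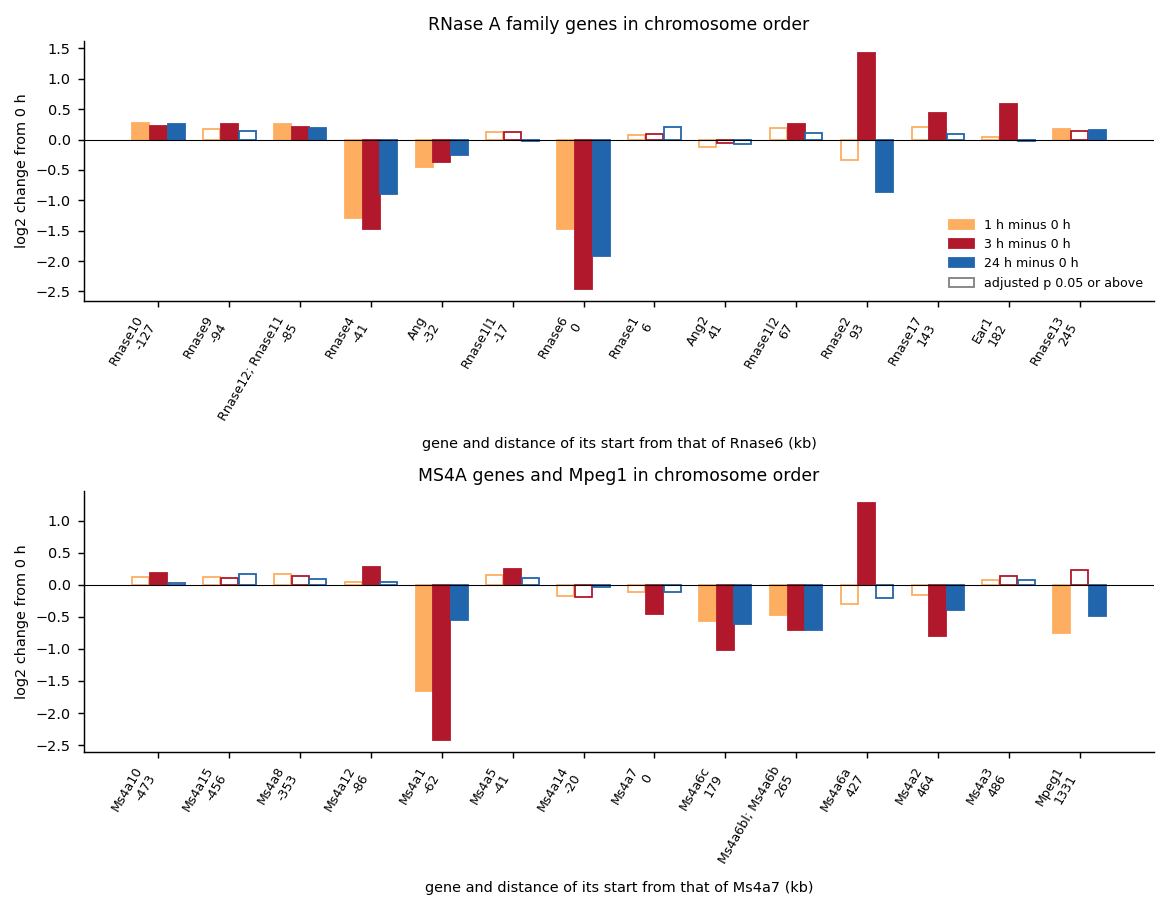
Change of log2 signal from 0 h (y axis) at 1, 3 and 24 h for the genes of the ribonuclease A cluster (top) and the MS4A cluster with Mpeg1 (bottom), placed in chromosome order. Numbers under the names are distances in kb between gene starts and that of Rnase6 or Ms4a7, and open bars did not pass an adjusted p of 0.05. Rnase4, Ang and Rnase6 fell while Rnase2, Rnase17 and Ear1 rose at 3 h.

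Promoter sequence is shown for these neighbours with opposite changes and for Cd68 and Lyz2, which hold motifs named for factors of the myeloid lineage. The stretches are the 250 bases upstream of the RefSeq start on the GRCr8 build, 5′ to 3′ on the gene's own strand. Of the 9 genes, 8 had a promoter in the RefSeq table used, all but Cd93. Capitals mark GAGGAA, a core of the PU.1-type ETS site, or its reverse complement, and TTGCNNAA, a C/EBP-type site, both searched on either strand. The motif letters do not overlap in any of these promoters.
Rnase6, chr15:26829395-26829644, plus strand: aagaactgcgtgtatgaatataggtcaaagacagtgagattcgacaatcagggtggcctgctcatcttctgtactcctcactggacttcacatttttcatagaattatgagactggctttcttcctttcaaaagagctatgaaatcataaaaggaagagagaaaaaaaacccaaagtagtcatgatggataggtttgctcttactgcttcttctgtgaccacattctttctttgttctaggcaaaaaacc
Rnase2, chr15:26923935-26924184, minus strand: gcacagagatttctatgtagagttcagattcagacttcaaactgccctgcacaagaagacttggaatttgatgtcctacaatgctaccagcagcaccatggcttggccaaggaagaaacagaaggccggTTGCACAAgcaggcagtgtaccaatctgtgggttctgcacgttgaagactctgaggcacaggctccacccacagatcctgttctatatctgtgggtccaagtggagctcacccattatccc
Cd68, chr10:54882442-54882691, minus strand: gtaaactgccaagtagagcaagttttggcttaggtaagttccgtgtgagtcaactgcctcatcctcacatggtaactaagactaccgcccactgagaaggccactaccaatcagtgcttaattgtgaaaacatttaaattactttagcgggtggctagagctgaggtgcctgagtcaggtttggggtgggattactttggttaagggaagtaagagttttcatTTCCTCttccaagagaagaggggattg
Lyz2, chr7:54798012-54798261, minus strand: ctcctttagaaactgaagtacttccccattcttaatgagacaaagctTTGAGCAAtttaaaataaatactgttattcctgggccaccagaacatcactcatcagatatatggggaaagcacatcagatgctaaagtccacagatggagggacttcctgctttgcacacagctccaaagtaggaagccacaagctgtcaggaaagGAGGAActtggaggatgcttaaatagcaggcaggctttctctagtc

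GAGGAA was present in 4 of the 8 promoters, those of Csf1r, Lyz2, Cd68 and F13a1, and in 23.3% of 33469 rat promoters of the same length. TTGCNNAA was present in 3 of the 8, those of Lyz2, Rnase2 and F13a1, and in 9.22% of all. Rnase6 and Mpeg1 held neither, and neither did Ms4a7. A match is a description of these letters only, and genes with the same motif did not share a direction: Csf1r and Cd68 fell at 1 h while Lyz2 and F13a1 rose. Of the myeloid transcription factors on the array, Klf4, Irf8 and Nr4a1, which nonclassical monocytes or their precursors need, changed by -1.31, -1.07 and -1.21 at 2 h. Tfec, a macrophage factor, rose by 2.17 at 3 h. In all, 5 of the 19 factors rose and 7 fell at that time.

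Ms4a7 (rn5 chromosome 1, minus strand, 234556016 to 234571535), a membrane-spanning protein of mature monocytes and macrophages, fell late and by less. Mean log2 signals were 6.23 ± 0.12 at 0 h and 6.13 ± 0.34, 5.96 ± 0.25, 5.79 ± 0.24, 5.73 ± 0.23 and 6.12 ± 0.28 at 1, 2, 3, 6 and 24 h. The low point was at 6 h, as for Csf1r, and the 24 h level was close to that of 0 h. The 3 h and 6 h changes were -0.45 and -0.51 (SE 0.12 for both, limma adjusted p = 0.00206 and 8.92e-04). The 24 h change was -0.11, with a 95% interval from -0.35 to 0.13. This probe set had a signal below the median of all probe sets, which was 6.61 at 0 h.

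Ms4a7 sits in the MS4A cluster of chromosome 1, with Mpeg1 about 1331 kb away in rn5. Of the 13 other MS4A probe sets on the array, among them Ms4a4c, which the table places on no chromosome, 5 fell and 4 rose at 6 h, 2 of the latter after quantile normalization of the means. Ms4a6c and the probe set shared by Ms4a6b and Ms4a6bl fell by 1.23 and 1.00 at 6 h. Ms4a6a rose by 1.34 and so went against its near relatives. Ms4a1, the B cell antigen CD20, had its largest fall at 2 h, with a change of -2.56. Ms4a2, a chain of the IgE receptor of mast cells and basophils, fell by 0.83 at 6 h.

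Lyz2 (rn5 chromosome 7, minus strand, 60337948 to 60343258) encodes lysozyme, which digests bacterial walls and is made by neutrophils as well as by monocytes and macrophages. Its mean log2 signal was 12.52 ± 0.08 at 0 h and 12.65 ± 0.08, 12.83 ± 0.12, 12.77 ± 0.11, 12.80 ± 0.08 and 12.58 ± 0.11 at 1, 2, 3, 6 and 24 h. The rise was small, with a peak 1.23-fold above 0 h at 2 h (change 0.30, SE 0.05, limma adjusted p = 5.98e-06), but the arrays of a time point lay close together. Lyz2 was no longer called at 24 h (change 0.05, 95% interval -0.05 to 0.16). The 1 h change of 0.13 was called at an adjusted p of 0.0467 and was not called once the means of each time point were centred (adjusted p = 0.248). Beside it, 14, 15, 15, 14 and 11 of 18 neutrophil genes rose at 1, 2, 3, 6 and 24 h, while 0, 0, 0, 1 and 2 fell. Their summed linear signal went from 21513 to 56310 between 0 h and 2 h and was 30354 at 24 h. None of these genes was at 0, which does not show detection, since signal over background was not assessed. Mmp8, a collagenase of neutrophil granules, rose by 1.07 at 2 h, and Il1r2, the decoy receptor for IL-1, rose by 2.95. The part of neutrophils in the Lyz2 signal was not tested.

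Cd93 and F13a1 had their highest means at 24 h. Cd93 (rn5 chromosome 3, minus strand, 149189136 to 149194140) is a C-type lectin-like glycoprotein of myeloid and endothelial cells. The gene had a mean log2 signal of 8.41 ± 0.26 at 0 h, 8.69 ± 0.26, 8.44 ± 0.12, 8.61 ± 0.24 and 8.56 ± 0.29 at 1, 2, 3 and 6 h, and 9.23 ± 0.22 at 24 h. The first 5 means lay within 0.29 of each other, and the last stood apart. The 24 h change was 0.82 (SE 0.11, limma adjusted p = 3.89e-07), or 1.76-fold. The 24 h level was also above those of 1 h and 6 h, by 0.53 and 0.67 (adjusted p = 0.00139 and 2.18e-05), where 5.85% of all probe sets were called from 1 h to 24 h. At 1 h the gene was called higher by 0.29 (adjusted p = 0.0439), a call that was not made after centring (adjusted p = 0.109).

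F13a1 (rn5 chromosome 17, plus strand, 30406432 to 30580784) encodes the A subunit of coagulation factor XIII, which cross-links fibrin and is carried by platelets and monocytes. Its mean log2 signal was 11.04 ± 0.20 at 0 h, 11.36 ± 0.23, 11.10 ± 0.17, 11.25 ± 0.21 and 11.04 ± 0.32 at 1, 2, 3 and 6 h, and 11.64 ± 0.16 at 24 h. The 1 h and 24 h levels were above 0 h, and those between were not called. The changes were 0.32 at 1 h (SE 0.10, limma adjusted p = 0.0155) and 0.59 at 24 h (SE 0.10, adjusted p = 2.75e-05). From 6 h to 24 h the level rose by 0.60 (adjusted p = 3.68e-05), while the difference of 0.28 between 24 h and 1 h did not pass (adjusted p = 0.125). Over the 5 changes from 0 h, Cd93 and F13a1 were the closest pair of the 9 genes, with a root mean square difference of 0.124 log2 units.

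Platelets carry F13a1 and vessel wall cells carry Cd93, so genes of these and of red cells and heart muscle were set beside the pair. Of 12 platelet genes, 8, 6, 4, 1 and 8 rose at 1, 2, 3, 6 and 24 h and none fell. Their median changes were 0.32, 0.24, 0.15, 0.06 and 0.33, and their summed linear signals at 0, 1, 6 and 24 h were 34342, 38640, 34135 and 38349. At 2 h and at 3 h centring left 2 rising. The number of platelet genes called was highest at 1 h and 24 h, with 6 and 7 genes left after centring, and F13a1 was called at the same times. An example is Itga2b, a subunit of the fibrinogen receptor, up by 0.49 at 24 h. Pf4, a chemokine stored in platelets, was 0.04 above 0 h and was not called. Of 14 erythroid genes, 7 rose at 24 h. Of 14 endothelial genes 6 rose at 24 h, 3 after centring, with a median change of 0.14 and a summed linear signal of 1085 at 0 h and 1243 at 24 h. The endothelial receptor Tek rose by 0.81 at 24 h, as much as Cd93. Of 13 heart muscle genes 5 rose at 24 h and 6 at 1 h in tail blood, and centring left 4 and 3, quantile normalization 3 and 1. The part of these cells in the rise of Cd93 and F13a1 was not tested, and the 24 h time and the heart puncture cannot be told apart.

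**Figure D4:**
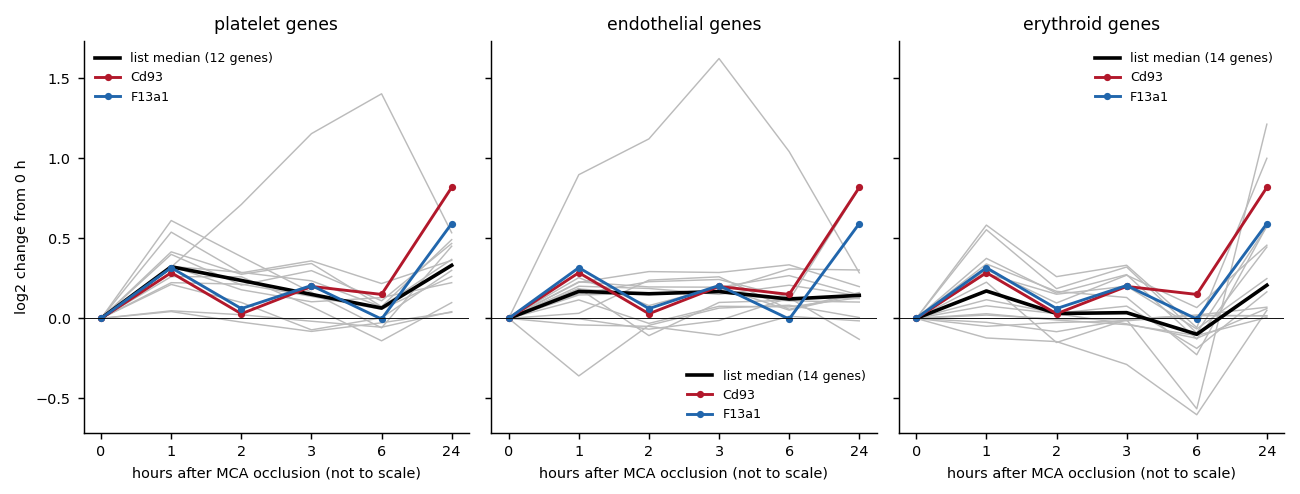
Change of log2 signal from 0 h (y axis) at 1, 2, 3, 6 and 24 h (x axis, not to scale) for platelet, endothelial and erythroid genes (grey lines, 1 per gene, median in black) with Cd93 in red and F13a1 in blue. Cd93 and F13a1 were at 0.82 and 0.59 at 24 h, above the list medians of 0.33 for platelet, 0.14 for endothelial and 0.21 for erythroid genes.

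Other monocyte genes were split in the same way. Of 28 on the array, 6 rose and 14 fell at 1 h, 11 rose and 9 fell at 3 h, and 5 rose and 14 fell at 24 h. The 5 became 3 with centred means and 8 with quantile normalized ones. Adgre1, the macrophage antigen F4/80, fell by 1.90 at 6 h, and Ly86, a partner of a Toll-like receptor relative, fell by 1.78 at 3 h. Cd14, the coreceptor for bacterial endotoxin, and Vcan, a proteoglycan made by monocytes, rose by 1.84 and 2.37 at 3 h. Ccr2, the chemokine receptor that guides classical monocytes to tissue, fell by 0.40 at 1 h and rose by 0.68 at 3 h, a dip and recovery like that of Mpeg1. Cybb, the catalytic subunit of the phagocyte oxidase, fell by 0.58 at 2 h.

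Genes known from nonclassical monocytes fell in the main, as Csf1r and Rnase6 did. Of 11, 8 fell at each of the 5 later times and 1, 0, 1, 3 and 0 rose (0 at 1 h and 1 at 6 h with quantile normalized means), with median changes of -0.70, -0.98, -0.99, -1.07 and -0.52. Eno3, an enolase, fell by 2.21 at 6 h. Cx3cr1, the fractalkine receptor, fell by 1.45 at 3 h, and Spn, the sialophorin by which rat monocyte subsets are told apart, fell by 1.55. Treml4, a receptor of the TREM family, was down by 0.73 at 1 h, and Itga4, an integrin chain, by 1.07 at 6 h. Several of these genes, Spn and Itga4 among them, are also expressed by lymphocytes. Beside them, 11 of 12 B cell genes and all 17 T cell genes fell at 3 h, with median changes of -2.05 and -1.02, and 9 of 12 NK cell genes fell. The summed linear signal went from 12403 to 4212 for B cell genes and from 16725 to 8661 for T cell genes between 0 h and 3 h. The part of lymphocytes in the fall of this list was not tested.

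Genes known from classical monocytes rose more often than they fell after 1 h. Of 9, 3 rose and 2 fell at 1 h, 7, 6, 6 and 4 rose at 2, 3, 6 and 24 h, and none fell after 1 h. Median changes were 0.09, 0.40, 0.68, 0.58 and 0.13. Vcan, Cd14, Clec4e (a lectin that senses mycobacteria and dead cells) and S100a9 (a calcium-binding protein of myeloid cells) had the largest changes. Ccr2, Cd14, Vcan and others of this list were counted among the other monocyte genes as well. Clec4e and S100a9 are expressed by neutrophils too, and the part of neutrophils in this list was not tested.

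**Figure D5:**
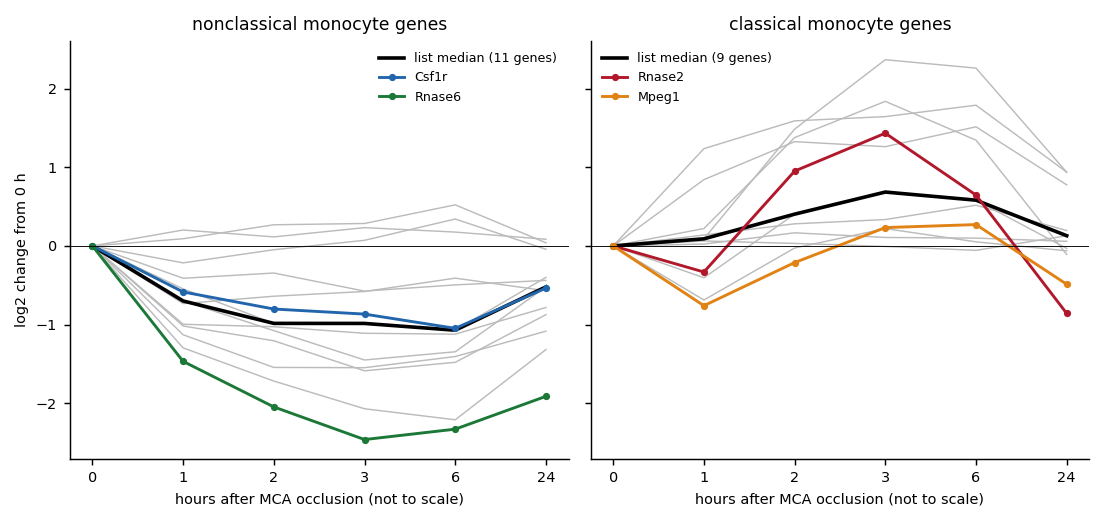
Change of log2 signal from 0 h (y axis) at 1, 2, 3, 6 and 24 h (x axis, not to scale) for genes known from nonclassical (left) and classical (right) monocytes, 1 grey line per gene and the median in black. Csf1r and Rnase6 are drawn over the left panel, where the median reached -1.07 at 6 h, and Rnase2 and Mpeg1 over the right panel, where it reached 0.68 at 3 h. The drawing does not assign these genes to a subset, which was not tested. Among genes not drawn, Lyz2 was higher at 2, 3 and 6 h, Cd68 was lower, and Cd93 and F13a1 were not called.

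Genes of resident tissue macrophages were counted as a further list. Of 19 on the array, 6, 9, 11, 10 and 7 rose at 1, 2, 3, 6 and 24 h and none fell, with median changes between 0.13 and 0.21. Centring left 4, 6, 10, 9 and 5 rising. Of all probe sets, 21.7%, 21.7%, 27.3%, 22.5% and 17.4% rose at these times, with median changes between 0.04 and 0.07. Msr1 and Mrc1, the scavenger and mannose receptors of macrophages, rose by 2.52 at 6 h and by 1.35 at 3 h. Gpnmb, a glycoprotein of phagocytes, rose by 0.88 at 2 h, and Lyve1, the hyaluronan receptor of macrophages and lymphatic vessels, by 0.91 at 24 h. Csf1r and Cd68 were below their 0 h levels at the times when Msr1 and Mrc1 were above theirs.

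Profiles most like those of the 9 genes were sought among all single-symbol probe sets by the root mean square difference over the 5 changes from 0 h, and no shared function is implied. The closest to Rnase6 were Eno3 (0.363 log2 units) and Ebf1 (0.440), a B cell factor, and no gene lay within 0.2. The closest to Rnase2 were Clec10a (0.389), a lectin of macrophages and dendritic cells, and Mt1a (0.408), a metallothionein, again with none within 0.2. For Mpeg1, Cd300e (0.151), a receptor of monocytes, and Sowahc (0.177) were the closest of 4 genes within 0.2. For Cd68 they were LOC681325 (0.104) and Ebp (0.125) of 18, and for Cd93 they were Tek (0.0890) and Pnpla8 (0.106) of 116. The remaining genes had more genes within 0.2. This distance is fixed, so the counts depend on the size of the changes and do not show how common a shape is. Lyz2, with the highest count, changed by 0.30 at most. Csf1r (nearest Vom2r-ps10 and Eef1b2) had 391 genes within 0.2, F13a1 (Erich1 and Tpm1) had 1064, Ms4a7 (Cox18 and Hdc) had 2207, and Lyz2 (Olr321 and Retnla) had 9575.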

How the data were processed

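Whole blood cell pellets gave RNA that was hybridized to Affymetrix rat gene arrays, 47 in all. The authors summarized each array by RMA, and the deposited table holds, for 27596 probe sets, log2 signals as the authors' mean and SD per time point (6 columns of each), single arrays, and the authors' own fold changes, p-values, FDRs and F-tests, which were not used here. The 47 columns of single arrays carry numbers that the labels do not tie to a rat and a time point, so none was used. The linear models planned for the arrays were replaced by the same arithmetic from the deposited means, SDs (taken as n - 1 SDs) and array numbers: a one-way fit over 6 time points with 41 residual degrees of freedom, variances moderated with limma 3.58.1 in R 4.3.3 (prior degrees of freedom 5.71), a 2-sided test and Benjamini-Hochberg adjustment over all probe sets. RNA was prepared in batches, per the study's methods, which were not analysed here. Precision is limited by the 7 or 8 arrays per time point, and signal over background was not assessed.

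Gene positions are those of the table, on rn5, and promoters come from RefSeq on GRCr8, counted from the annotated start. The 9 genes and the gene lists were chosen with earlier results of these data known, and the endothelial and heart muscle lists, and the list counts after centring or quantile normalization, were added after the data were seen. Text names the 9 genes, in each list up to 4 genes with the largest called change and up to 2 with the highest mean, members of the ribonuclease A and MS4A families, and the 2 nearest profiles. Summed linear signals add 2 to the power of the authors' mean log2 signal over a list. Alternatives were centring, quantile normalization of the means, no moderation, an intensity trend with robust prior, spread from 2 time points, a filter on low signal, leaving out 24 h, and Bonferroni adjustment. Tested on simulated data for 2 h minus 0 h over 27596 probe sets, the test called 90 of 100 probe sets changed by 0.5 and 100 of 100 changed by 1, with 3.55% of calls false. Far more probe sets were called in the real 2 h comparison (6002 higher and 5137 lower). The simulated rates were therefore not shown to hold there. Results of some genes are not reported here.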

Additional observations from a re-analysis of the deposited data

How the results depend on the processing

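No paired analysis was possible because the columns of single arrays could not be matched to rats, so the rat block was not run. The mean over several probe sets of a gene was not run either, since each of the 9 genes has 1. No change of the 9 genes reversed under any alternative run, and 588 recomputed changes stayed on their side of the threshold without turning (Lyz2 at 24 h was 0 after quantile normalization), 35 lost a call and 7 gained one. Of the recomputed counts, 135 stayed within 1.5 times and 18 did not. Genes higher at 1 h numbered 1 in place of 3 after centring and with the spread of the 2 time points only, which concerned Lyz2 and Cd93. With Bonferroni adjustment in place of the FDR, genes higher at 1, 2, 3 and 6 h numbered 0, 1, 1 and 0, and genes lower at 3, 6 and 24 h numbered 2, 2 and 1, a stricter threshold by construction. In the steps between time points, Bonferroni adjustment left 1 gene higher and 0 lower in the first step (1 h to 2 h). It left 0 higher from 2 h to 3 h, 0 lower from 3 h to 6 h and 2 higher in the last step. Without moderation, 0 were lower from 1 h to 2 h (Rnase6, adjusted p = 0.0564) and 0 from 3 h to 6 h (Rnase2, adjusted p = 0.0573). With the spread of the 2 time points only, 0 were higher from 2 h to 3 h (Mpeg1, adjusted p = 0.0510). Without the 24 h samples, 4 of the 9 genes passed the F-test at 5e-07 in place of 7, in a fit with fewer samples. Ms4a7 at 2 h, which did not pass, did so after centring (adjusted p = 0.0456), after quantile normalization (0.0260) and with the spread of the 2 time points (0.0216). Mpeg1 at 6 h passed with the spread of the 2 time points only (0.0116), and Cd93 at 3 h after quantile normalization (0.0255).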
